A study of Mus musculus with 35 samples.

Results

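In stromal-adherent mouse pre-B cells in which CD2-Cre switched on a dominant-negative allele of Ikaros (IKDN), 263 promoter peaks of H3K4me3 acquired H3K27me3 that the wild-type (WT) cells lacked. H3K27me3 is trimethylated lysine 27 of histone H3 and H3K4me3 is trimethylated lysine 4. The set was chosen from the deposited peak lists as WT H3K4me3 peaks on the 19 autosomes whose centre lay within 2500 bp of a transcription start site (TSS), that overlapped no WT H3K27me3 peak and that overlapped an IKDN H3K27me3 peak by at least 1 bp. They were 263 of 11458 such H3K4me3 peaks, or 2.30%, and belonged to 250 genes. The study comprised 35 libraries from cultures at passages 3 to 8, and 33 of them had a peak list, 17 from IKDN and 16 from WT cells. Both groups are labelled as stromal-adherent, and the labels name no further allele or agent in the WT group. CD2-Cre acts in the lymphoid lineage, and the allele blocks Ikaros and its relatives by dimerising with them. Each genotype and target had 1 library, so no difference between genotypes could be set against the spread between cultures, and all intervals hold counting error over promoters only. No p-values were computed.

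Polycomb repressive complex 2 deposits H3K27me3 at the promoters of silent developmental genes, where it is recognised by Polycomb repressive complex 1. H3K4me3 and H3K27ac, acetylated on the same lysine that carries H3K27me3, mark promoters in use, and a lysine 27 that is acetylated cannot be methylated at once. RNA polymerase II phosphorylated on serine 5 (RNAPII) marks initiating polymerase, and H3K36me3 follows elongating polymerase through the gene body. Ikaros, a zinc finger protein of the lymphoid lineage, sustains early B cell differentiation and recruits repressive as well as activating complexes.

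Promoters of 4 genes are printed because they show the range of the set, with every CG dinucleotide, the site of CpG methylation, in capitals. They are from the RefSeq promoter table for GRCm38.p6, the mm10 build of the deposited peaks, and run from 250 bases before to 50 after the start, 5′ to 3′ on the strand of the gene. Cacnb2, a calcium channel subunit gene (chr2:14604056-14604355, plus strand), Acadl, a fatty acid oxidation enzyme gene (chr1:66863260-66863559, minus strand), and Mycn, which codes for a MYC family transcription factor (chr12:12941787-12942086, minus strand), lay wholly under IKDN H3K27me3, with 300 of 300 bases covered. Rag1, which codes for a subunit of the V(D)J recombinase (chr2:101649483-101649782, minus strand), entered the set through H3K27me3 elsewhere in its H3K4me3 peak, and 0 of these 300 bases were covered. None of the 4 windows had WT H3K27me3, and each was covered by RNAPII over all 300 bases in WT. In IKDN cells RNAPII covered 300 bases of the Mycn window and 0 bases of the Cacnb2, Acadl and Rag1 windows.
Cacnb2: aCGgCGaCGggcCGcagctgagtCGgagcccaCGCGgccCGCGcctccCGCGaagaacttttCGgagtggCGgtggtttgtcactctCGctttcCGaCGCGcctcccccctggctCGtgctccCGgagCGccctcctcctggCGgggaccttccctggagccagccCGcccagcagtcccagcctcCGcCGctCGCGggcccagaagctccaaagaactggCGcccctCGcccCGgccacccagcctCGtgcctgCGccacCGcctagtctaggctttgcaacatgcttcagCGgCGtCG
Acadl: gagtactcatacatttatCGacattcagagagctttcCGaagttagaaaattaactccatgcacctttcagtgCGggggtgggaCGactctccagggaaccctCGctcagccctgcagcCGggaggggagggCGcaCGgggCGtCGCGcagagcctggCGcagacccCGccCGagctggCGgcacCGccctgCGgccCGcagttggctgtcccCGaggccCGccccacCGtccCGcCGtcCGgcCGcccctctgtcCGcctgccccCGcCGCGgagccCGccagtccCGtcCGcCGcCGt
Mycn: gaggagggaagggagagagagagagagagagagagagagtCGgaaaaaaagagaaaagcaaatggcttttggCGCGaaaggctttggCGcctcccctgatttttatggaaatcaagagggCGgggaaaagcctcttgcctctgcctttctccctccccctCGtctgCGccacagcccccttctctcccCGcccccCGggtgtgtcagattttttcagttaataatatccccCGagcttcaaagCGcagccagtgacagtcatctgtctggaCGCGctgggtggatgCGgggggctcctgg
Rag1: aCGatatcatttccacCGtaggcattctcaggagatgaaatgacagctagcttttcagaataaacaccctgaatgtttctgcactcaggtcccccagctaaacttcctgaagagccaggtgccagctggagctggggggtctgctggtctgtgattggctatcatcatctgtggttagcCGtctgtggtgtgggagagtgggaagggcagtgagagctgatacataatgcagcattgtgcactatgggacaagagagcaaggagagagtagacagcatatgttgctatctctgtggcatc
Cacnb2 holds 35 CG dinucleotides, Acadl 34, Mycn 14 and Rag1 3, against a median of 7 over the 32851 promoters in the table. The letters TGGGAA, a core of the known Ikaros motif searched on both strands, occur at 1 place, in the Rag1 window, and 25.6% of all tabulated promoters hold them. The table matched 183 of the 263 members (69.6%), fewer than the 80% needed, so base composition was not compared over the whole set. The deposited annotation gave a CpG island label to 37 of the 263 members (14.1%, 95% Clopper-Pearson interval 10.1 to 18.9). It gave that label to 1649 of 8256 promoters with H3K27me3 in neither genotype (19.97%, 19.1 to 20.9). Among the named genes only peaks placed in introns carried it, and the CG-rich Acadl promoter did not. These shares therefore do not measure how many promoters lie in CpG islands.

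The libraries limit what can be read from the lists. The antibody label of the H3K4me3, E2A and ETS1 libraries differed between IKDN and WT, and that of the IKDN H3K4me3 library was the one given for H3K4me1. In that list 64.4% of peaks lay within 2500 bp of a TSS, close to the 62.0% of the WT H3K4me3 list and well above the 32.6% of the IKDN and 33.6% of the WT H3K4me1 list. Its lowest peak score was 6.56, against 4.05 in WT. Of 4 members whose WT score lay below 6.56, 3 had no IKDN H3K4me3 peak. The H3K27me3 lists held 78085 peaks over 147 Mb in IKDN and 79738 peaks over 125 Mb in WT cells. B lineage markers had an H3K4me3 promoter peak at 20 of 29 autosomal genes in IKDN and 22 of 29 in WT cells.

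The 4 classes of WT H3K4me3 promoter peaks were unequal in size. Besides the 263 members, 8256 had H3K27me3 in neither genotype, 2139 had it in both and 800 had it in WT alone. Of the 8519 promoter peaks without WT H3K27me3, 3.09% gained it, a share that the selection itself fixes. In the opposite direction, 810 of 11259 IKDN H3K4me3 promoter peaks (7.19%) carried WT but no IKDN H3K27me3. The WT H3K4me3 score of the members had a median of 270.9 on the scale of the authors' list (interquartile range 46.1 to 496.9), below the 549.5 where H3K27me3 was in neither genotype and above the 234.2 where it was in WT alone and the 57.7 where it was in both. Peak width followed the same order, with a median of 1910 bp for members, 2278 bp in neither, 1901.5 bp in WT alone and 1472 bp in both. Of the 263 members, 174 (66.2%, 60.1 to 71.9) had both an H3K27ac and an RNAPII peak in WT cells and 46 had neither, so the name of active promoters held for most of the set but not for all of it.

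9 members were copies of Rn4.5s, a tandem repeat on chromosome 6 that codes for a small noncoding RNA. Reads cannot be placed securely among near-identical copies, so these 9 are uncertain. Counts for the other 254 are given only where stated, and all other counts include the copies. Without the copies, 159 of 254 members had a WT Ikaros peak and 191 had an IKDN H3K4me3 peak. Of these 254, 37 had neither WT H3K27ac nor WT RNAPII, and the median WT H3K4me3 score was 244.75. 5 genes had 2 member peaks each, Brinp3, Blk, Palld, Acvr1c and Zfp781. Several members were neighbours, with 10 adjacent pairs less than 100 kb apart, among them Rag2, B230118H07Rik and Rag1 in a row, Airn and Igf2r, Ltk and Tyro3, and Lynx1 and Ly6d. Members of such a pair are not independent regions.

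H3K27me3 in IKDN cells covered a median of 57.4% of the H3K4me3 peak of a member (interquartile range 28.5 to 100%), and the whole peak at 82 members. These values chose the set and are given as a description. Within 5 kb on each side of the peak centre it covered a median of 2628 bp in IKDN and 0 bp in WT cells. The median of the longest uninterrupted stretch was 1699 bp, and 14 members lay in a stretch over 10 kb. The longest, of 78.5 kb, was at Nhlrc2, whose H3K4me3 peak lay 3.55 kb from a WT H3K27me3 peak, and the next, of 40.6 kb, was at Fam120b, whose H3K4me3 peak lay 0.396 kb from one. At 174 members the nearest WT H3K27me3 peak was more than 10 kb from the H3K4me3 peak, and the median distance was 31772 bp.

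The position of the new H3K27me3 around the TSS is given as a description, since the selection of promoter peaks places it there. The TSS itself was covered at 156 of the 249 members with a known strand (62.7%). H3K27me3 was longer downstream of the TSS at 125 members and longer upstream at 120, with medians of 1181 bp and 1111 bp. At 125 bp downstream of the TSS it was present in IKDN at 65.5% of these members and in WT at 0.803%. At 4875 bp upstream the shares were 21.7% in IKDN and 10.4% in WT, and at 4875 bp downstream they were 14.5% in IKDN and 3.21% in WT.

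**Figure D1:**
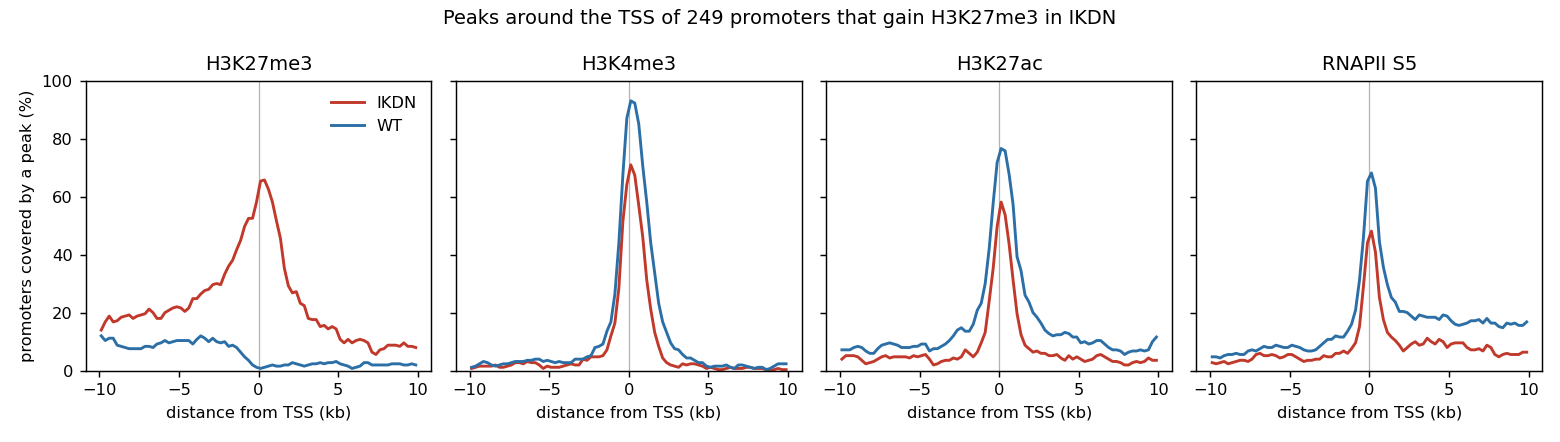
Share of the 249 members with a known strand that are covered by a peak (vertical axis, percent) at each distance from the TSS (horizontal axis, kb, negative upstream, 250 bp steps), in IKDN (red) and WT (blue) cells. H3K27me3 reaches 65.9% in IKDN, while the highest share is 71.1% in IKDN against 93.2% in WT for H3K4me3, 58.2% against 76.7% for H3K27ac and 48.2% against 68.3% for RNAPII. The selection required a WT H3K4me3 peak, which favours WT in the H3K4me3 panel.

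The members lay close to the thresholds in places. Gm11627 entered with 3 bp of overlap with IKDN H3K27me3, and Rbm28 stayed out with a gap of 2 bp. Gja1, the connexin 43 gene, lay 4 bp from a WT H3K27me3 peak, while Mir692-3 was left out with 28 bp of overlap. Apol7b was the farthest member from its TSS, at 2343 bp, and Foxc1 was the next outside, at 2568 bp.

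Peaks of the marks of active promoters were missing in IKDN cells at about 1 in 4 to 1 in 3 members that had them in WT. RNAPII was lost at 63 of 184 members (34.2%, 27.4 to 41.6), against 183 of 7898 promoters with H3K27me3 in neither genotype (2.32%). Over all WT H3K4me3 promoter peaks with WT RNAPII, 4.71% lost it. H3K27ac was lost at 63 of 207 members (30.4%, 24.2 to 37.2), against 110 of 8090 in neither (1.36%) and 4.54% of all. H3K4me3 was lost at 63 of 263 members (24.0%, 18.9 to 29.6), against 217 of 8256 in neither (2.63%) and 6.5% of all. For each of these marks the interval of the members lay apart from the share in neither. In bulk chromatin, fewer cells with a peak and a weaker peak in every cell cannot be told apart.

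The remaining promoter marks were lost to different degrees. H3K4me1, found around active promoters and at enhancers, was lost at 38 of 183 members (20.8%, 15.1 to 27.4), against 4.87% in neither and 6.97% of all. MED1, a Mediator subunit that links factors to polymerase, was lost at 21 of 100 members (21.0%), against 1.45% in neither and 2.07% of all. Without the Rn4.5s copies MED1 was lost at 21 of 92 members. H3K4me2 was the mark most often kept, with a loss at 13 of 224 members (5.80%), against 0.344% in neither and 0.879% of all. After these losses 200 of 263 members (76.0%) still had an IKDN H3K4me3 peak beside H3K27me3, and 226 had H3K4me2. Whether both marks sat on the same chromosomes or in different cells of the culture cannot be told apart in these libraries.

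Promoters that already had H3K27me3 in WT cells also lost active marks. With H3K27me3 in both genotypes, 28.0% of H3K27ac peaks, 26.5% of RNAPII peaks and 20.2% of H3K4me3 peaks were lost. The intervals overlapped those of the members for these 3 marks and for H3K4me1, with 16.5% lost. MED1 differed, with 8.47% lost where H3K27me3 was in both (4.92 to 13.4), against 21.0% of members (13.5 to 30.3), and H3K4me2 was lost at 2.63%, against 5.80% of members.

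**Figure D2:**
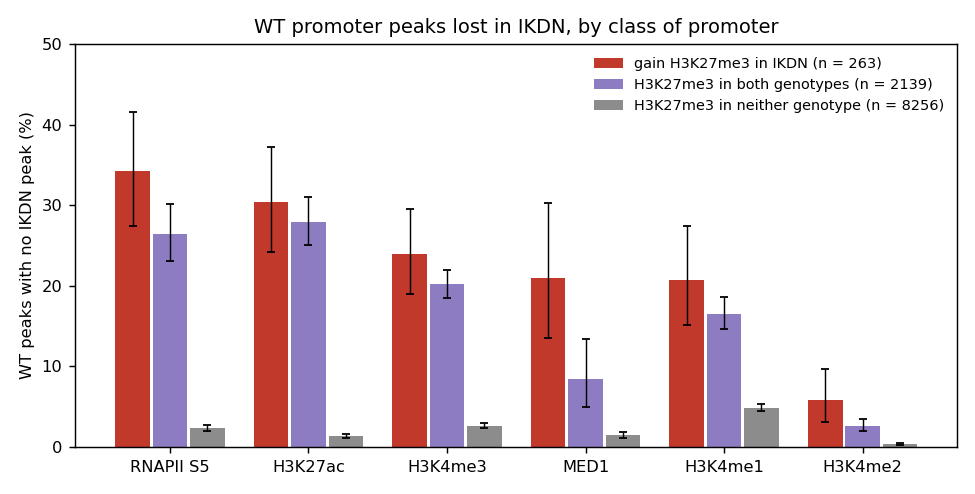
Share of WT peaks of each mark with no IKDN peak (vertical axis, percent) at promoters that gain H3K27me3 in IKDN, have it in both genotypes or have it in neither; bars are shares and whiskers exact 95% binomial intervals. Members lose 34.2% of RNAPII and 30.4% of H3K27ac peaks, and promoters with H3K27me3 in neither genotype 2.32% and 1.36%.

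New RNAPII, MED1 and H3K4me1 peaks were less frequent at members than over all promoter peaks. A new RNAPII peak appeared at 6 of 79 members without one in WT (7.59%), against 26.1% of all promoter peaks without WT RNAPII. New MED1 was found at 53 of 163 members (32.5%), against 74.5% in neither and 59.8% of all. New H3K27ac was found at 17 of 56 members, beside 25.7% of all, and at 8 of 47 without the Rn4.5s copies. New H3K4me1 was found at 18 of 80 members, or 10 of 71 without those copies, beside 43.7% of all. Where H3K27me3 was in both genotypes, new MED1 was about as frequent as at members, at 33.6%. In that class new RNAPII was found at 15.1%, new H3K27ac at 18.8% and new H3K4me1 at 36.2%.

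RNAPII and H3K27ac were often lost together. Of the 174 members with both in WT, 33 (18.97%) lost both, 25 lost RNAPII alone, 5 lost H3K27ac alone and 111 (63.8%) kept both. In the class with H3K27me3 in neither genotype, 97.6% kept both and 0.548% lost both. Among the 33 members that lost both, 15 also lost H3K4me3 and 18 kept it. Loss of RNAPII alone outnumbered loss of H3K27ac alone in the other promoters too, with 126 against 21 in neither and 226 against 49 over all.

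How much of the promoter was covered by H3K27me3 went with how often active marks were lost. Cover comes from the overlap that chose the set, so this is given as a description. It is a share of peak width, and a narrow peak is more easily covered in full. Where the whole H3K4me3 peak was covered (82 members), RNAPII was lost at 38 of 50 members (76.0%), H3K27ac at 39 of 63 (61.9%) and H3K4me3 at 43.9%. Where 50% to under 100% was covered (64 members), the losses were 35.7% for RNAPII, 24.5% for H3K27ac and 26.6% for H3K4me3. Where under 25% was covered (58 members), they were 7.55% for RNAPII, 7.41% for H3K27ac and 3.45% for H3K4me3. H3K4me2 stayed below 10% throughout, with 8.33% lost at fully covered peaks and 1.75% under the least cover. Strength of the WT promoter moved with cover, with a median WT H3K4me3 score of 80.3 at fully covered members and 484.1 at those under 25%.

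Split by WT H3K4me3 score over all promoter peaks, in classes of equal size, 128 members fell in the low, 80 in the middle and 55 in the high class. H3K27ac loss was 61.7% in the low class, 15.5% in the middle and 3.64% in the high class, beside 7.75%, 0.187% and 0% of promoters with H3K27me3 in neither genotype. RNAPII loss was 57.6%, 25.7% and 20% in the same order, beside 11.2%, 1.26% and 0.283%. H3K4me3 loss was 45.3%, 5% and 1.82%, beside 14.3%, 0.0622% and 0%. The members exceeded promoters with H3K27me3 in neither genotype in each score class, but by little for H3K27ac and H3K4me3 in the high class. A class does not hold promoters of equal strength, and the low class spans scores from 4.39 to 247.3. In it 81 of 128 members had WT H3K27ac and 59 had WT RNAPII, against 1342 and 1184 of 1506 in neither.

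Cover and RNAPII loss went together within a score class as well, which is again a description. In the high class RNAPII was lost at 10 of 20 members with at least 50% of the peak covered, against 1 of 35 with less. In the middle class it was lost at 15 of 30 with at least 50% covered, against 3 of 40 with less. In the low class the numbers were 28 of 42 and 6 of 17. H3K27ac in the high class was lost at 2 of 20 members with at least 50% covered and at 0 of 35 with less.

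**Figure D3:**
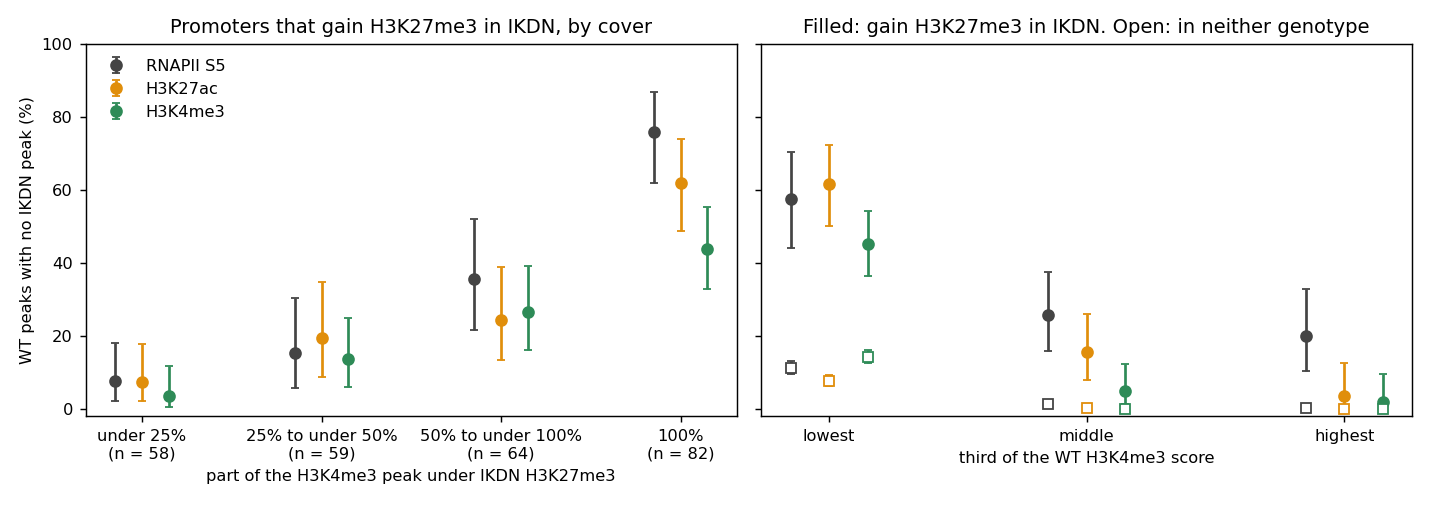
Share of WT peaks with no IKDN peak (vertical axes, percent, with exact 95% binomial intervals), left for members by the part of the H3K4me3 peak under IKDN H3K27me3, right by class of WT H3K4me3 score for members (filled) and promoters with H3K27me3 in neither genotype (open). RNAPII loss is 7.55% under the least cover and 76.0% at fully covered peaks, and members stand above the open symbols for RNAPII in all score classes.

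The 11 members in the high class that lost RNAPII were, besides Acadl and Cacnb2, the genes Eps8, Fam78b, Gfod1, Ltk, Mir1904, Mir1907, Stxbp5, Tmem181a and Vegfc. They are named after their values were seen. Fam78b had 0 kb of RNAPII within 5 kb on each side of the peak centre in IKDN and 9.15 kb in WT, with 8.86 kb of H3K27me3 in IKDN and none in WT. Vegfc, a growth factor of lymphatic vessels, had 0 kb of RNAPII in IKDN and 1.32 kb in WT, and kept 0.760 kb of H3K27ac in IKDN against 2.14 kb in WT. Gfod1 kept 3.02 kb of H3K27ac in IKDN, against 6.94 kb in WT, with no RNAPII in IKDN and 3.51 kb in WT. All 11 except Cacnb2 kept some H3K4me3 in this window.

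Markers of stromal fibroblasts carried less H3K4me3 in IKDN than in WT. Of 25 stromal fibroblast markers, 10 in IKDN and 18 in WT cells had an H3K4me3 promoter peak, and H3K4me3 over the 25 genes and 5 kb on each side summed to 17.3 kb in IKDN and 58.7 kb in WT. H3K4me3 was at 0 at 15 of the 25 markers in IKDN and at 6 in WT, and Col3a1, Dcn, Lum, Tagln, Tcf21 and Postn were at 0 in both. Summed H3K27ac was 34.7 kb in IKDN and 45.9 kb in WT, and summed RNAPII 164 kb in IKDN and 177 kb in WT. Only Col1a2, a chain of type I collagen, was both a marker on this list and a member. It had no H3K4me3 in IKDN and 2.96 kb in WT, 1.66 kb of H3K27me3 in IKDN and none in WT, and no H3K27ac in either. The part of stromal chromatin in the losses of the low class was not tested. T cell and myeloid markers held no member, and their H3K4me3 summed to 26.0 kb in IKDN and 39.3 kb in WT for T cell and 30.3 kb in IKDN and 34.2 kb in WT for myeloid genes. B lineage markers also had less in IKDN, with 121 kb in IKDN and 148 kb in WT for H3K4me3, 428 kb in IKDN and 528 kb in WT for H3K27ac and 1051 kb in IKDN and 1535 kb in WT for RNAPII.

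Covered length was compared as well, over lost and remaining peaks alike. A promoter was called lower when it had at least 1000 bp less in IKDN and WT had at least 1.5 times as much. H3K27ac within 5 kb was called lower at 96 members (36.5%) and higher at 16, or 7 without the Rn4.5s copies, beside 6.93% lower and 8.67% higher of all promoter peaks. Its median length was 959 bp in IKDN and 1802 bp in WT. RNAPII was called lower at 72 members (27.4%) and higher at 9, beside 10.9% and 18.8% of all, with medians of 501 bp in IKDN and 1274 bp in WT. H3K4me3 was called lower at 73 members and higher at 1, beside 7.08% and 1.12% of all. It was called lower at 19.3% of promoters with H3K27me3 in both genotypes. Every promoter class required a WT H3K4me3 peak and set no condition on IKDN H3K4me3, so lower calls were favoured in advance. H3K4me2 was called lower at 57 and higher at 12, beside 4.39% and 4.72% of all, and H3K4me1 at 77 and 18, or 9 higher without the Rn4.5s copies, beside 14.7% and 10.4%. MED1 was called lower at 10 members (3.802%) and higher at 52 (19.8%), or 43 without the Rn4.5s copies, beside 0.262% lower and 30.1% higher of all.

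**Figure D4:**
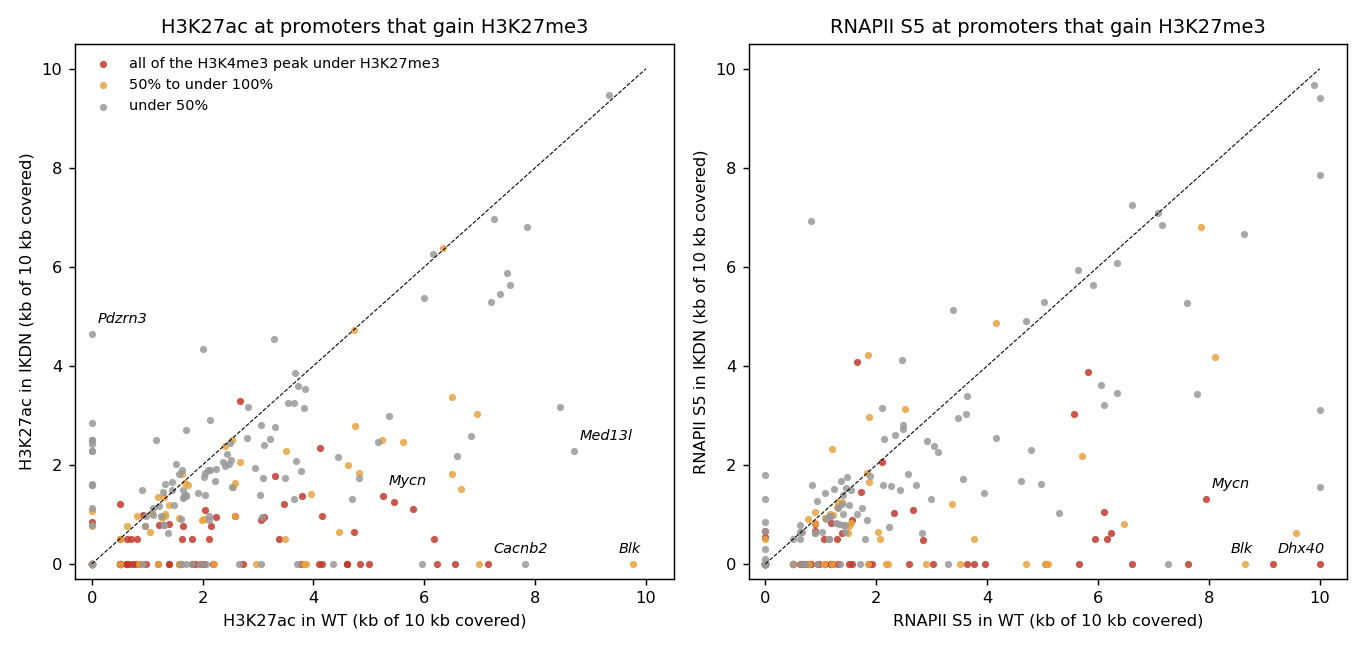
Length covered by H3K27ac (left) and RNAPII (right) within 5 kb on each side of the peak centre at each of the 263 members, in IKDN (vertical axis, kb) against WT (horizontal axis, kb); colours give the part of the H3K4me3 peak under H3K27me3 and the dashed line marks equal length. Blk, Cacnb2, Mycn, Med13l and Dhx40 lie below the line where labelled, and Pdzrn3 lies above it with 4.64 kb of H3K27ac in IKDN and 0 kb in WT.

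H3K27ac around the members was also called lower more often than higher. Within 50 kb on each side, a window that includes the promoter, it was called lower at 109 members (41.4%) and higher at 23, or 14 without the Rn4.5s copies, beside 11.8% lower and 16.4% higher of all promoter peaks. The median was 2721 bp in IKDN and 4560 bp in WT. With the inner 5 kb left out, it was called lower at 81 members (30.8%) and higher at 25, or 16 without those copies, beside 12.7% lower and 18.6% higher of all. Medians were then 1414 bp in IKDN and 2713 bp in WT, but the median of the difference at each member was 0 bp. H3K36me3 over the gene body was called lower at 63 of 262 members with an annotated body (24.0%, 19 to 29.7) and higher at 26, beside 3.06% lower and 19.8% higher of all. Promoters with H3K27me3 in neither genotype had H3K36me3 lower at 2.66% and higher at 17.9%. Over all members H3K36me3 was lower at 12.5% in the low, 31.6% in the middle and 40.0% in the high score class, but a call needs at least 1000 bp in WT. Among members with that much, it was lower at 16 of 31 (51.6%) in the low, 25 of 58 (43.1%) in the middle and 22 of 48 (45.8%) in the high class, beside 12.4%, 2.69% and 1.40% in neither. Its median over the members was 0 bp in IKDN and 1239 bp in WT.

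Most members had been bound by Ikaros in WT cells, fewer than in the class with H3K27me3 in neither genotype and more than in the class with it in both. An Ikaros peak overlapped 168 of 263 members (63.9%, 57.8 to 69.7), against 86.4% of promoters with H3K27me3 in neither genotype, 32.9% with it in both and 63.4% with it in WT alone. Promoter strength accompanied this difference. In the low score class the share was 32.8% of members and 66.8% in neither, in the middle class 96.3% of members and 89.0% in neither, and in the high class 89.1% of members and 92.4% in neither. H3K27ac, H3K4me3 and RNAPII were lost less often at members with WT Ikaros than at those without it. The losses were 36 of 155 (23.2%) against 27 of 52 (51.9%) for H3K27ac and 15 of 168 (8.93%) against 48 of 95 (50.5%) for H3K4me3. For RNAPII they were 46 of 147 (31.3%) against 17 of 37 (45.9%), with intervals that overlapped. The class with H3K27me3 in neither genotype had the same order, with H3K27ac lost at 0.662% with Ikaros and 6.38% without, and H3K4me3 at 1.07% with and 12.6% without. MED1 at members had the opposite order, with 21 of 94 lost with Ikaros and 0 of 6 without. The low score class had the least Ikaros at members and the highest losses, and this split was not made within score classes. The highest Ikaros peak scores were at Rn4.5s with 54.5, Tmem181a with 38.1, Egr1 with 34.5, Gfra2 with 31.7 and St14 with 29.2, in the authors' units.

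Some other factors were lost more often at members than in the class with H3K27me3 in neither genotype, and others were not. Members had lower WT H3K4me3 scores than that class, and factor losses were not split by score class. IRF4, a regulator of pre-B cell differentiation, was lost at 35 of 106 members (33.02%), against 10.6% in neither and 11.4% of all. ETS1, an ETS family factor of lymphocytes, was lost at 27 of 146 (18.5%), against 2.28% in neither and 3.4% of all, with antibody labels that differed between genotypes. TEAD1, the DNA-binding partner of YAP, was lost at 16 of 70 (22.9%), against 6.84% in neither and 8.02% of all. PAX5, which maintains B cell identity, was lost at 12 of 178 (6.74%), against 1.16% in neither and 1.84% of all. Without the Rn4.5s copies the losses were 35 of 97 for IRF4, 27 of 137 for ETS1, 14 of 66 for TEAD1 and 12 of 169 for PAX5. EBF1, which specifies the B lineage, was lost at 15 of 59 (25.4%), beside 23.3% in neither and 21.7% of all, and E2A, a bHLH factor of early B cells, at 39 of 63 (61.9%), beside 57.04% and 56.7%. For EBF1 and E2A the share of members was near that of all promoters. Promoters with H3K27me3 in both genotypes lost 19.8% of IRF4, 13.3% of ETS1, 17.8% of TEAD1 and 4.79% of PAX5 peaks. For each of these 4 factors the interval overlapped that of the members. Aiolos, the close relative of Ikaros, had only 5 member peaks in WT and none of the 5 remained, beside 74.4% lost over all.

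New IRF4, TEAD1 and ETS1 binding was less frequent at members than in the class with H3K27me3 in neither genotype, and near that in the class with it in both. New IRF4 appeared at 19.1% of members, against 57.7% in neither, 20.9% in both and 45.4% of all. New TEAD1 appeared at 19.7%, against 46.9% in neither, 18.4% in both and 38.4% of all, and new ETS1 at 26.0%, against 47.8% in neither, 31.6% in both and 40.6% of all. For EBF1, new binding was found at 10 of 204 members (4.90%), beside 8.21% in neither and 8.29% of all, and for E2A at 1 of 61 members, beside 5.86% of all. New PAX5, at 22 of 71 members (31.0%), was near the 30.4% in neither, beside 42.1% of all. LHX2, mapped in IKDN cells alone, overlapped 22.8% of members and 36.1% of promoters in neither. LMO2, also mapped in IKDN cells alone, overlapped 9.89% of members and 22.6% in neither. Lower occupancy than in neither moved with narrower and weaker H3K4me3 peaks, and the part of peak width in it was not tested.

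4 members were on the lists of B cell genes, which were chosen with earlier results known. Of 22 B lineage genes with a WT H3K4me3 promoter peak 2 were members, Blk and Ly6d, and 19 had H3K27me3 in neither genotype. The list for pre-B differentiation and signalling from the pre-B cell receptor had 21 such genes, of which 2 were members, Rag1 and Rag2, and 18 had H3K27me3 in neither. Over all WT H3K4me3 promoter peaks 2.30% were members, and counts of 2 are too small to read against it. Blk, which codes for a Src family kinase of the B lineage, had 6.73 kb of H3K27me3 in the 10 kb window in IKDN and none in WT. It had 0 kb of H3K27ac in IKDN and 9.77 kb in WT, 0 kb of RNAPII in IKDN and 8.66 kb in WT, and 0 kb of H3K4me3 in IKDN and 4.60 kb in WT. H3K36me3 over the Blk body was 0 kb in IKDN and 23.9 kb in WT, so each of its active marks listed here was absent in IKDN. Ly6d, a surface marker of B cell specified progenitors, had 3.18 kb of H3K27me3 in IKDN and none in WT, and its 2.66 kb of WT H3K27ac and 2.11 kb of WT H3K4me3 were 0 in IKDN.

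The recombinase genes differed in H3K4me3, whose peak remained at Rag2 and was lost at Rag1. Both genes lost their RNAPII and H3K27ac peaks, and the lengths of these left at Rag2 lay elsewhere in its window. Rag2, the partner of Rag1 in V(D)J recombination, had 4.30 kb of H3K27me3 in IKDN and none in WT, 0.626 kb of RNAPII in IKDN against 6.24 kb in WT, 0.969 kb of H3K27ac in IKDN against 2.59 kb in WT, and 1.84 kb of H3K4me3 in IKDN against 3.14 kb in WT. Rag1 had 1.72 kb of H3K27me3 in IKDN and none in WT, no RNAPII in IKDN against 7.26 kb in WT, and no H3K27ac in IKDN against 4.35 kb in WT. Its H3K4me3 was 0.501 kb in IKDN and 3.63 kb in WT. The Rag1 window printed above, with 3 CG dinucleotides and no H3K27me3 over its bases, belongs to the less covered members, with 37.3% of the H3K4me3 peak under H3K27me3, while Rag2 had 100%.

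Mycn and Cdkn1a, on the list of cell cycle and checkpoint genes, differed in H3K27ac near the promoter. RNAPII and H3K36me3 were shorter in IKDN at both. Mycn had 10.001 kb of the 10 kb window under H3K27me3 in IKDN and none in WT, and still had 3.78 kb of H3K4me3 in IKDN, against 5.63 kb in WT. Its H3K27ac was 1.37 kb in IKDN and 5.25 kb in WT, and its RNAPII 1.31 kb in IKDN and 7.95 kb in WT. The H3K27ac, RNAPII and H3K4me3 peaks of Mycn thus remained and were shorter, while H3K36me3 over its body was 0 kb in IKDN and 4.21 kb in WT. Cdkn1a, the p21 cell cycle inhibitor gene, had 1.57 kb of H3K27me3 in IKDN and none in WT, with H3K27ac almost equal at 2.50 kb in IKDN and 2.54 kb in WT. Its RNAPII was 4.17 kb in IKDN and 8.12 kb in WT. These were the 2 members among 20 cell cycle and checkpoint genes with a WT promoter peak.

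The most extensive H3K27me3 lay at Acadl, Mycn and Sytl2, each with 10.001 kb of the window in IKDN and none in WT. Sytl2, an effector of RAB27 in vesicle traffic, had no H3K27ac, RNAPII or H3K4me3 in IKDN, against 1.95 kb, 1.56 kb and 1.78 kb in WT. Acadl lost RNAPII, with 0 kb in IKDN and 3.97 kb in WT, but had 0.944 kb of H3K27ac in IKDN against 3.11 kb in WT and 1.95 kb of H3K4me3 in IKDN against 2.91 kb in WT. Both promoters were wholly covered by H3K27me3, and they differed in whether the acetylated and H3K4me3 peaks remained. Cacnb2 had 9.46 kb of H3K27me3 in IKDN and none in WT, with no H3K27ac, RNAPII or H3K4me3 in IKDN against 7.15 kb, 7.63 kb and 3.83 kb in WT, although its WT H3K4me3 score was 1233.3. Its nearest WT H3K27me3 peak was 210 kb away.

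Dhx40, a DEAH-box RNA helicase gene, lay in a 17.7 kb stretch of H3K27me3, and its H3K4me3 peak was 2.17 kb from a WT H3K27me3 peak. It had no RNAPII in IKDN and 10.001 kb in WT, and its gene body had 2.45 kb of H3K36me3 in IKDN and 34.4 kb in WT. The other members ranked for extent of H3K27me3, Acvr1c, an activin receptor gene, Cth, a cysteine synthesis enzyme gene, Mir125b-1, a microRNA gene, Oaf and Scn4b, a sodium channel subunit gene, had 9.17 to 9.61 kb in IKDN and 0 to 2.89 kb in WT. None of these 5 had H3K27ac in the IKDN window, and only Scn4b had more than 1 kb in WT, with 2.20 kb.

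Loss of transcription marks over gene bodies was largest at Slc37a1, Eps8, Gfra2, Celsr1 and Lpcat2. Celsr1, a planar cell polarity cadherin gene, had 17.7 kb of H3K36me3 in IKDN and 61.4 kb in WT, although RNAPII at its promoter was 2.32 kb in IKDN and 1.21 kb in WT. Slc37a1, a sugar phosphate transporter gene, had 0 kb of H3K36me3 in IKDN and 45.4 kb in WT. Eps8, which codes for an actin-regulating receptor substrate, had 2.82 kb in IKDN and 49.7 kb in WT, and its promoter kept 2.64 kb of H3K4me3 in IKDN against 3.29 kb in WT while RNAPII was 0 kb in IKDN and 2.89 kb in WT. Gfra2, a receptor of the GDNF family, had 1.27 kb in IKDN and 43.0 kb in WT. Lpcat2, an enzyme of phospholipid remodelling, had 0 kb in IKDN and 38.3 kb in WT, and no promoter H3K27ac, RNAPII or H3K4me3 in IKDN.

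The drop in H3K27ac length was largest at Blk, followed by Pgf, Cacnb2, Syndig1l, Zkscan16, Med13l, D630039A03Rik, Ltk, Mir6973a and Alpl. Pgf, the placental growth factor gene, had 0 kb in IKDN and 7.81 kb in WT, with 29.6% of its H3K4me3 peak under H3K27me3. Med13l, a subunit of the Mediator kinase module, had 2.29 kb in IKDN and 8.70 kb in WT with only 10.3% covered. Ltk, a receptor tyrosine kinase gene, had 0.501 kb in IKDN and 6.17 kb in WT with all of its peak covered. Alpl, the tissue-nonspecific alkaline phosphatase gene, had 1.51 kb in IKDN and 6.66 kb in WT, and 0 kb of H3K36me3 in IKDN against 21.8 kb in WT. Large drops in H3K27ac thus occurred at members with little cover as well as at fully covered ones.

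A few members ran against the rest. Pdzrn3, an E3 ubiquitin ligase gene, had 4.64 kb of H3K27ac in IKDN and none in WT, 1.796 kb of RNAPII in IKDN and none in WT, and 92.8 kb of H3K36me3 over its body in IKDN and none in WT. Agap1, which codes for an Arf GTPase-activating protein, had 1.601 kb of H3K27ac and 10.1 kb of H3K36me3 in IKDN and neither in WT, and Fam217b had 1.62 kb and 3.99 kb in IKDN and neither in WT. Tpm1, a tropomyosin gene, had 4.34 kb of H3K27ac in IKDN and 2.01 kb in WT, but RNAPII of 3.10 kb in IKDN and 10.001 kb in WT. At these 4 genes between 15.2% and 48.4% of the H3K4me3 peak was under H3K27me3. The strongest rise among Rn4.5s copies was 2.84 kb of H3K27ac in IKDN and none in WT.

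**Figure D5:**
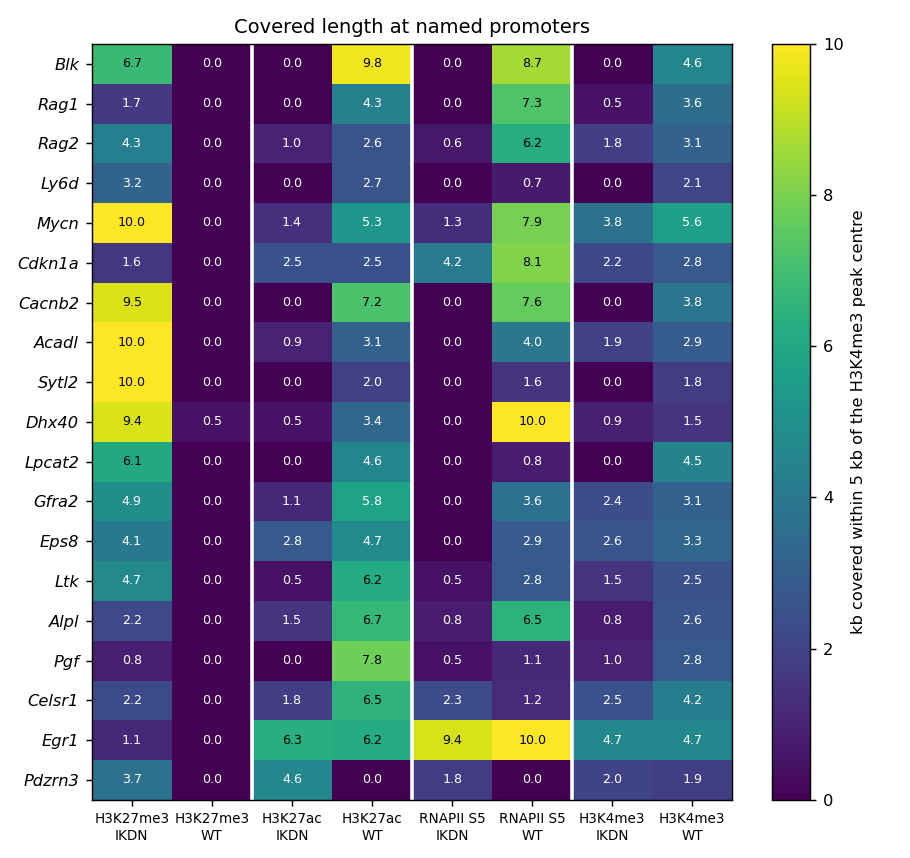
Length covered within 5 kb on each side of the H3K4me3 peak centre (colour and printed value, kb) for 19 of the named members (rows) by H3K27me3, H3K27ac, RNAPII and H3K4me3 in IKDN and WT cells (columns, IKDN left of WT). Blk and Cacnb2 have none of the 3 active marks shown in IKDN, Mycn and Acadl keep H3K4me3 under 10.001 kb of H3K27me3, and Egr1 stays near its WT lengths.

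Other members kept their active marks beside a short stretch of H3K27me3. Egr1, an immediate early transcription factor gene, had 1.13 kb of H3K27me3 in IKDN and none in WT, with RNAPII of 9.41 kb in IKDN and 10.001 kb in WT and H3K27ac of 6.26 kb in IKDN and 6.16 kb in WT. St14, the matriptase gene, had 1.91 kb of H3K27ac in IKDN and 2.25 kb in WT. Unlike these, Ctgf, a target of YAP and TEAD and the 1 member among 23 Hippo pathway genes with a WT promoter peak, had no H3K4me3 in IKDN and 0.914 kb in WT, and RNAPII of 3.02 kb in IKDN and 5.56 kb in WT. The lists of integrin and focal adhesion genes and of housekeeping genes, with 27 and 16 genes that had a WT promoter peak, held 0 members, which lists of this size cannot tell from the 2.30% over all.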

How the data were processed

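Chromatin immunoprecipitation libraries of 15 targets in IKDN and WT cells, of LHX2 and LMO2 in IKDN and of Ikaros in WT cells were used as annotated peak lists. Per the file headers, each list gives peak coordinates, distance to the TSS and a peak score as the authors deposited it. The scale of the score is not given in the sources used here, so scores only ranked peaks within a list, and depth per library is unknown. BWA, STAR, HOMER and bcl2fastq 1.8.3, and the builds mm10 and mm9, are named in the submitters' processing notes. Positions matched mm10: for 9001 promoter peaks with an entry in the GRCm38 promoter table, the TSS implied by the deposited distance was at most 50 bp from the tabulated one for 90.1%. No peak position was converted.

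Presence of a mark was an overlap of at least 1 bp with the WT H3K4me3 peak, and loss was a WT peak with no IKDN peak. Covered length was the union of peaks within 5 kb of the peak centre, within 50 kb for H3K27ac (also without the inner 5 kb), or over the RefSeq gene body for H3K36me3. Lower or higher meant a difference of at least 1000 bp and 1.5-fold. These are thresholds, not tests. Intervals are exact 95% Clopper-Pearson intervals for counting error only. The WT E2A, WT ETS1 and IKDN PAX5 lists are partial and were used on the 11, 18 and 18 autosomes they cover in full. Base composition of the whole set was not compared, because too few members matched the promoter table. The interval arithmetic was tested on simulated data. Python 3.11.15 with pandas 2.3.3, numpy 2.4.6, scipy 1.17.1 and matplotlib 3.10.9 was used.

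The members, gene lists and rules were chosen with earlier results of these data known. Named genes are the 10 members with most IKDN H3K27me3, the 10 with the largest drop and the 5 with the largest rise of H3K27ac, the 5 with the largest drop of H3K36me3, the 5 with the highest Ikaros score, members on a gene list and those at the limits of the rule, with 1 peak per gene. 1 named gene is not reported here. Alternatives changed the overlap rule, the H3K27me3 and mark lists used, the distances, peaks per gene, the sex chromosomes and the class of WT H3K4me3 score. Leaving out the Rn4.5s copies, leaving out the inner 5 kb and limiting H3K36me3 calls to bodies with at least 1000 bp in WT were added after seeing the data.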

Additional observations from a re-analysis of the deposited data

How the results depend on the processing

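With 1 library per genotype and target, no replicate could be left out and no spread between cultures is known. No paired analysis was possible because each genotype and target has 1 library. Of 109 values under alternatives, 80 stayed within the counting interval or within 1.5 times the count, and 29 moved. Of 78 loss shares, members stood above promoters with H3K27me3 in neither genotype in 77, the exception being H3K4me2 in the high score class, with 0% in both. These shares recount the same libraries and largely the same promoters, so they are not 78 separate results. The number of members was 146 when 50% of the H3K4me3 peak had to be covered and 209 to 326 under the other alternatives, and 26 of the 42 named genes remained members under 50% cover. With 50% cover, loss at members was 45.5% for H3K27ac, 57.6% for RNAPII, 36.3% for H3K4me3, 31.0% for H3K4me1 and 34.2% for MED1, and WT Ikaros occupancy was 52.7%. In the low, middle and high class of WT H3K4me3 score, loss was 61.7%, 15.5% and 3.64% for H3K27ac, 57.6%, 25.7% and 20% for RNAPII, 45.3%, 5% and 1.82% for H3K4me3, Ikaros occupancy was 32.8%, 96.3% and 89.1%, and H3K36me3 was lower at 12.5%, 31.6% and 40.0%. In the low and high class alone, loss was 10.1% and 0% for H3K4me2, 33.3% and 9.09% for H3K4me1, and 40.0% and 9.30% for MED1. With equal numbers of top-scored peaks in both lists, MED1 loss was 34.0% at members and 9.60% in neither. The full MED1 lists held 24219 peaks in IKDN and 12070 in WT. Those of IRF4 held 29561 in IKDN and 17950 in WT, and those of TEAD1 47735 in IKDN and 33520 in WT. The part of list length in the IRF4 and TEAD1 shares was not tested. The cause of the shifts under alternatives was not tested. The low class held 50 of the 63 H3K27ac and 58 of the 63 H3K4me3 losses, but 34 of the 63 RNAPII losses.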

Other observations

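Several members outside the named lists bear on signalling and imprinting, and they were chosen after their values were seen. Igf2r, which codes for the mannose 6-phosphate receptor that clears insulin-like growth factor 2, and Airn, the noncoding RNA that silences Igf2r on the paternal allele, were both members and are neighbours on chromosome 17. Airn had 8.21 kb of H3K27me3 in the 10 kb window in IKDN and none in WT, and 0 kb of H3K27ac in IKDN against 2.73 kb in WT. Igf2r had 5.42 kb of H3K27me3 in IKDN and none in WT, and H3K36me3 over its body of 0 kb in IKDN and 4.90 kb in WT. Neither had RNAPII or H3K4me3 in the IKDN window, so both promoters of this imprinted pair were without a peak of these in IKDN. Both had a WT H3K4me3 peak, as the selection required.

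Tyro3, a receptor tyrosine kinase gene beside Ltk on chromosome 2, had 2.36 kb of H3K27me3 in IKDN and none in WT, with H3K27ac of 0.960 kb in IKDN and 4.15 kb in WT and H3K36me3 of 0 kb in IKDN and 7.53 kb in WT. Kit, the stem cell factor receptor of early lymphoid progenitors, had 2.39 kb of H3K27me3 in IKDN and none in WT while its H3K27ac was 3.60 kb in IKDN and 3.73 kb in WT. Socs3, a feedback inhibitor of cytokine signalling, had 1.90 kb of H3K27me3 in IKDN and none in WT, and RNAPII of 4.21 kb in IKDN and 1.86 kb in WT. Ada, a purine enzyme gene needed by lymphocytes, entered with 5.42% of its H3K4me3 peak covered and had RNAPII of 1.03 kb in IKDN and 5.30 kb in WT.

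The B230118H07Rik promoter lies between Rag2 and Rag1, and its 10 kb window had 4.10 kb of H3K27me3 in IKDN and none in WT, and RNAPII of 0.626 kb in IKDN and 9.57 kb in WT. The windows of B230118H07Rik and Rag2 overlap, so these lengths count in part the same chromatin.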
